A study of Mus musculus with 59 samples.

Results

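Transcripts of the complement and coagulation proteins were followed in liver, bone marrow and spleen of B6C3F1 mice given baclofen, an agonist of the GABA-B receptor, or its vehicle. The set has 43 genes, named by symbol, and a gene was measured where the platform annotation gave a probe set that symbol and no other. On that rule 40 of the 43 genes were measured, by 54 probe sets, among 18193 genes in all. C3, Cfd and C4b have no probe set of their own under the rule and were not analysed here. The 59 arrays hybridised total RNA of mice killed 2 hours after the last of 1 or 5 daily doses, and the control groups received 0.5% methylcellulose in place of baclofen. Liver has 3 vehicle and 4 baclofen samples at 1 day, and marrow and spleen have 4 and 4. Each tissue has 4 vehicle and 8 baclofen samples at 5 days. All groups share the B6C3F1 strain. The labels give neither the baclofen dose nor the age or sex of the mice, and they number the replicates without stating that each is a separate animal, so p-values measure only the spread between these samples. The liver samples came from the left lateral lobe, the marrow from the right humerus and the spleen samples from part of a cross-section.

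Complement is a cascade of plasma proteins that tags and lyses microbes. C1q, or mannose-binding lectin with its proteases, starts it on a surface, C3 convertases amplify it, and C6, C8 and C9 belong to the pore that ends it. Coagulation is a second protease cascade, set off by tissue factor or by the contact system, in which thrombin turns fibrinogen into fibrin, factor XIII cross-links the clot and plasmin dissolves it. Hepatocytes secrete most of these proteins, whereas macrophages make much of the C1q, and factor XIII subunit A comes from cells of the blood lineages. Several, fibrinogen among them, rise in the acute phase response to inflammation.

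Every value below is the log2 of the deposited array intensity, and every difference is baclofen minus vehicle on that scale with its standard error (SE). Array medians were 34.7 to 36.8 intensity units in liver, 72.6 to 76.1 in marrow and 74.3 to 77.6 in spleen, and each tissue was fitted apart. Hepatocyte markers averaged 14.54 to 14.63 across the liver libraries. They averaged 5.01 to 6.17 in spleen except in vehicle 5-day replicates 1 and 3, at 7.20 and 9.75, and baclofen 5-day replicate 5, at 9.59. One marrow library, baclofen 1-day replicate 3, had skeletal muscle markers at 9.95 against 6.58 to 7.97 in the others. Adipocyte markers averaged 5.87 to 8.23 in the baclofen spleens at 5 days and 5.63 to 6.16 in the vehicle spleens of that day. At 1 day they averaged 5.67 to 6.33 with baclofen and 5.83 to 6.86 with vehicle. The part of fat tissue in the spleen values was not tested. In 5 of the 7 livers taken at 1 day the label fields contradict each other on the treatment, the source field giving one and the title the other, and the titles were followed.

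Liver held nearly the whole set. In liver 38 of the 40 measured genes reached the brightness needed for testing, a mean no lower than that of the dimmest 40% of genes, and the exceptions were F13a1 and F3. In marrow and in spleen 14 did. The C1q chains, C2, Masp1, Serping1, Cfp, F5, F10, F13a1, Pros1 and Serpinf2 passed in marrow and in spleen. F8 and Kng1 passed in marrow but not in spleen, and C6 and Cfb in spleen but not in marrow. The fibrinogen chains show how far the tissues lay apart, since Fga, the alpha chain, had a mean of 14.57 ± 0.06 (SD, n = 3) in vehicle livers at 1 day and 3.54 ± 0.10 (SD, n = 4) in vehicle spleens at 1 day.

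In liver after a single dose 0 of 38 genes passed the threshold, an adjusted p under 0.05 by limma with Benjamini-Hochberg adjustment over all 10916 genes tested, where 2.67% of all genes did (1.58% higher and 1.09% lower). At an unadjusted p under 0.05 there were 2 members, against 12.5% of all genes, Cfb at -0.20 ± 0.08 (SE) and Cfi at -0.14 ± 0.06 (SE), a protease component and an inhibitor of the alternative pathway convertase. The differences were small and mostly negative, 33 of 38 below zero with a median of -0.09, whereas 52.9% of all genes tested were below zero with a median of -0.01. With each array centred on its median it was 29 of 38, beside 44.6% of all genes. Every baclofen value lay under every vehicle value for 7 genes, C8a, Cfb, Cfi, F10, F9, Mbl1 and Plg, and 6.34% of all genes showed such a separation downward. It ran upward for 0 members and for 6.20% of all genes. These directions depend on which label field is followed. Grouped by the source field, as 4 vehicle and 3 baclofen livers, 25 of 38 differences were below zero with a median of -0.02, beside 55.6% of all genes and a median of -0.01. The baclofen values then lay under every vehicle value for 3 members and 2.84% of all genes, and 0 members and 0% of all genes were called by limma, with an unadjusted p under 0.05 for 1 member.

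After 5 daily doses 7 of the 38 genes were lower in liver and 0 were higher. Of all genes tested, 5.75% were lower and 4.86% were higher. The 7 were Serpinf2, Mbl1, C8a, C9, Serping1, C1qc and Cfb, with changes from -13.7% for Cfb to -28.6% for C1qc. An unadjusted p under 0.05 was reached by 17 of the 38, and by 26.7% of all genes. Of the 38 differences 30 were below zero, with a median of -0.13, beside 54.1% of all genes and a median of -0.02; with each array centred on its median it was 29, with a median of -0.12. Divided by role, 3 of 10 classical and lectin pathway genes, 1 of 3 alternative pathway genes, 2 of 5 genes of the membrane attack complex and 1 of 4 genes for plasminogen and serpins were lower. None passed among the 4 fibrinogen and factor XIII genes, the 6 vitamin K dependent proteins, the 2 cofactors or the 4 contact system genes.

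**Figure D1:**
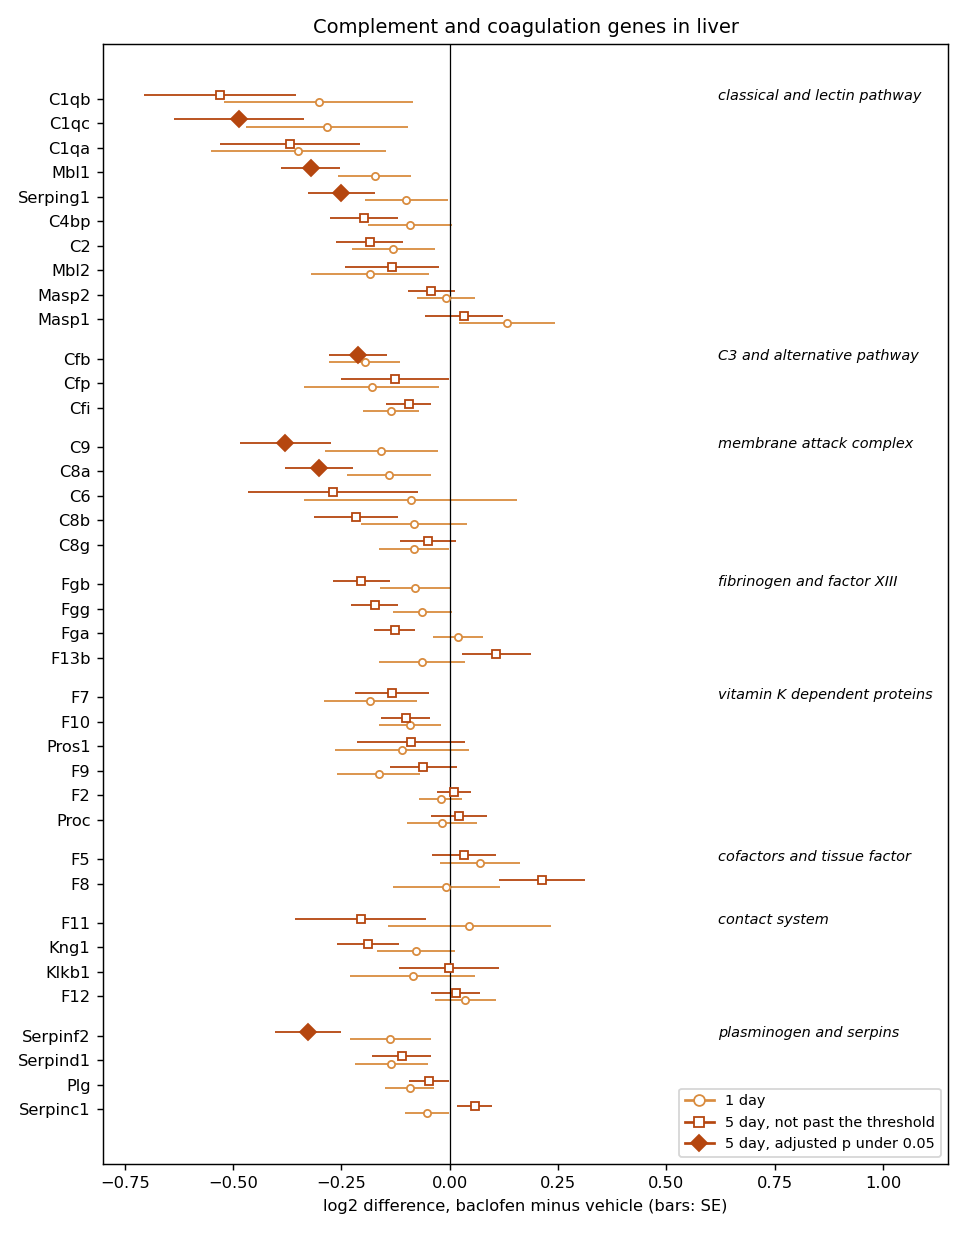
Differences between baclofen and vehicle in liver (x axis, log2 scale, bars show the SE) for the 38 tested genes (y axis) grouped by role, with circles for 1 day, squares for 5 days and filled diamonds for the 7 genes past the threshold at 5 days. Most symbols lie left of zero at both times, and the filled diamonds run from -0.21 for Cfb to -0.49 for C1qc.

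Serpinf2, which encodes alpha-2-antiplasmin, the main inhibitor of plasmin, had values of 13.11, 12.97, 13.07 and 12.92 in the vehicle livers at 5 days. In the 8 baclofen livers it ran from 12.50 through a median of 12.66 to 12.91. The groups did not overlap, and Serpinf2 was the only gene of the 38 for which that held at 5 days (2.89% of all genes separated downward, and 2.59% upward with 0 members among them). It fell by 0.33 (SE 0.08, limma adjusted p = 0.0103), a change of -20.3%. At 1 day the groups overlapped, with vehicle values of 12.97, 12.97 and 12.93 and baclofen values of 12.86, 12.75, 13.01 and 12.66, and the difference was -0.14 ± 0.09 (SE, limma adjusted p = 0.651).

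Mbl1, a mannose-binding lectin that recognises microbial sugars, measured 11.92, 12.18, 12.09 and 11.78 in the vehicle livers at 5 days. The baclofen livers lay between 11.55 and 11.82 with a median of 11.66. Only the lowest vehicle library, replicate 4, reached into the baclofen range. Mbl1 fell by 0.32 (SE 0.07, limma adjusted p = 0.00593), the smallest adjusted p of the set. At 1 day its values were 12.10, 11.95 and 11.88 with vehicle and 11.81, 11.78, 11.82 and 11.80 with baclofen. The related lectin Mbl2 differed by -0.13 ± 0.11 (SE, limma adjusted p = 0.467) at 5 days, with values that overlapped.

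C8a and C9 encode the alpha chain of C8 and the subunit that polymerises into the lytic pore. C8a measured 13.41, 13.37, 13.57 and 13.05 in the vehicle livers and ran from 12.88 through 13.05 to 13.20 with baclofen, so that vehicle replicate 4 again lay within the baclofen range. Its difference was -0.30 ± 0.08 (SE, limma adjusted p = 0.018). C9 measured 13.66, 14.03, 14.04 and 13.77 with vehicle and from 13.17 through 13.47 to 13.85 with baclofen, and it differed by -0.38 ± 0.10 (SE, limma adjusted p = 0.0253) with overlapping groups. The remaining pore genes did not pass, C8b at -0.22 ± 0.10, C6 at -0.27 ± 0.20 and C8g at -0.05 ± 0.06 (SE). Without vehicle replicate 2 the adjusted p was 0.0524 for C8a and 0.0953 for C9, and without vehicle replicate 3 it was 0.0986 and 0.109.

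Serping1, the C1 inhibitor, which restrains the first complement proteases and the contact system, measured 13.83, 13.58, 13.67 and 13.42 with vehicle and from 13.24 through 13.34 to 13.65 with baclofen at 5 days. It differed by -0.25 ± 0.08 (SE, limma adjusted p = 0.0426). Cfb, factor B of the alternative pathway convertase, measured 12.70, 12.81, 12.75 and 12.44 with vehicle and from 12.39 through 12.45 to 12.61 with baclofen, a difference of -0.21 ± 0.07 (SE, limma adjusted p = 0.0465). In each gene the highest baclofen value came from replicate 8, and vehicle replicate 4 was the lowest of its group. These were the least stable calls. Serping1 missed the threshold in 14 of 23 alternative settings and Cfb in 17, with no change of sign.

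**Figure D2:**
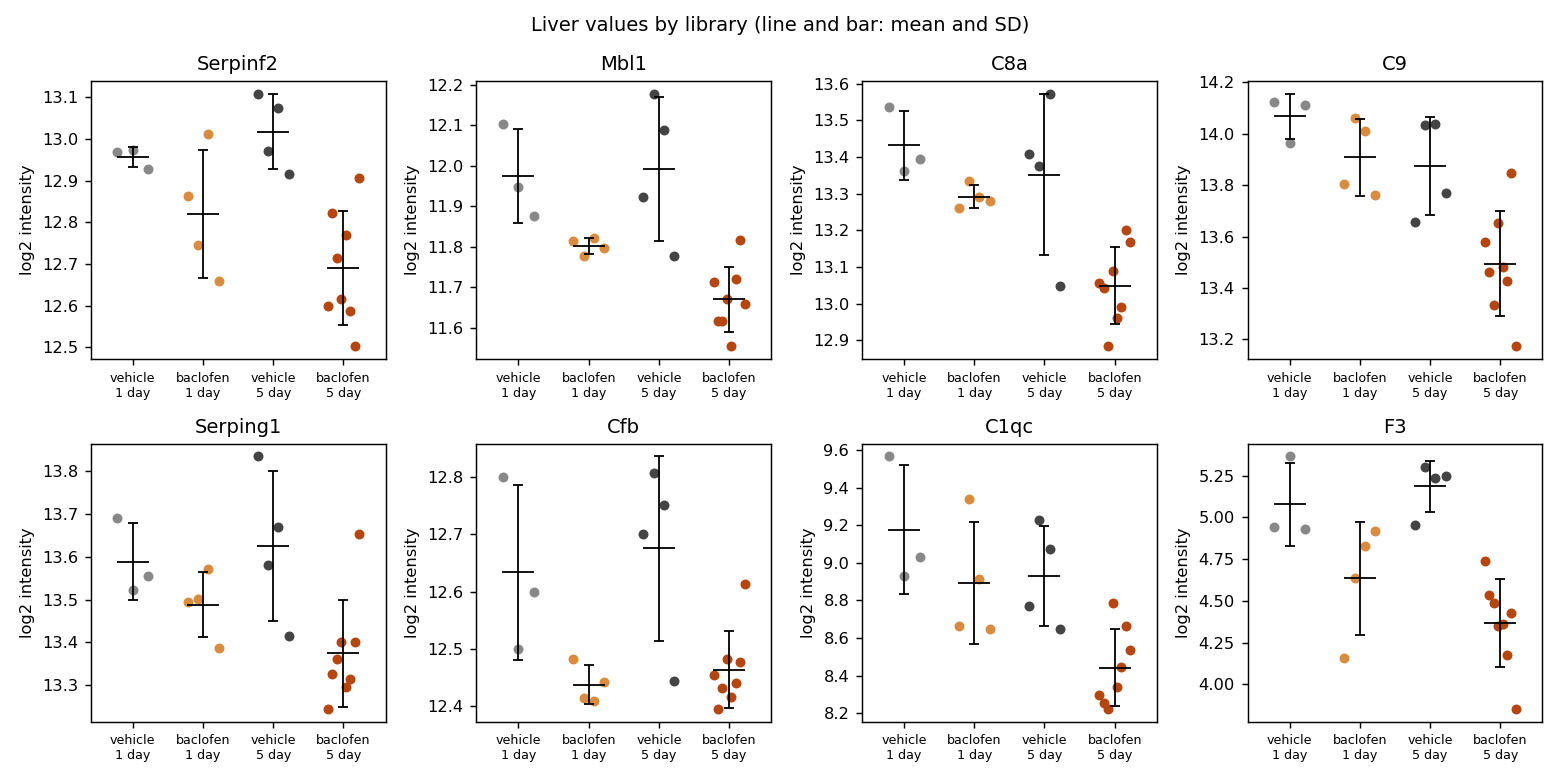
Log2 intensity (y axes) in every liver library of the 4 groups (x axes) for the 7 genes past the threshold at 5 days and for F3, with points for libraries and a line and bar for the mean and SD. Serpinf2 and F3 show no overlap between vehicle and baclofen at 5 days, and in Mbl1, C8a and Cfb the overlap comes from the lowest of the 4 vehicle points.

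F3, tissue factor, the membrane protein that starts coagulation, was too dim in liver for the main test, its mean lying at the 29.7th percentile of all genes. It was examined without the brightness filter after its values had been seen. Its vehicle values at 5 days ran from 4.96 to 5.30 and its baclofen values from 3.85 through a median of 4.40 to 4.74, so the groups did not overlap, a downward separation shown by 1.99% of the 18193 genes. The difference was -0.82 ± 0.14 (SE, limma adjusted p = 0.00212), a change of -43.3%, and 3.20% of all genes were called lower in that fit. In 20 further settings without the filter the adjusted p stayed between 0.00129 and 0.0372. At 1 day the baclofen values of 4.16 to 4.92 lay just under the vehicle values of 4.93 to 5.37, and the difference was -0.44 ± 0.18 (SE, limma adjusted p = 0.352). These levels correspond to intensities between 14.4 and 41.2. In bulk tissue, fewer cells that carry a transcript and less of it per cell cannot be told apart.

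The fibrinogen genes, which lie side by side on chromosome 3 (Fgg at chr3:83007724-83015056, Fga at chr3:83026153-83033627 and Fgb at chr3:83042246-83049863, GRCm38.p6), did not pass the threshold in the main test and passed in some other settings. At 5 days Fgg differed by -0.17 ± 0.06 (SE, limma adjusted p = 0.0503), Fgb by -0.20 ± 0.06 (SE, limma adjusted p = 0.0506) and Fga by -0.13 ± 0.05 (SE, limma adjusted p = 0.089). With the brightness filter at the 60th percentile Fgb and Fgg were called lower (limma adjusted p = 0.0393 and 0.037), as they were with the mean of all probe sets (0.0442 and 0.0414). With limma's trend and robust options the 3 chains were called (0.0335 for Fgb, 0.0278 for Fgg and 0.0451 for Fga), and without vehicle replicate 4 Fgb and Fgg were (0.0212 and 0.0183). None of the chains was called with no brightness filter, with each array centred on its median, with limma's array weights or with only the 5-day groups fitted. Within groups the 3 chains varied together. Taken as deviations from the group means of the 19 liver libraries, Fga and Fgb correlated with Pearson's r = 0.93 and Spearman's rho = 0.88, Fga and Fgg with r = 0.93 and rho = 0.91, and Fgb and Fgg with r = 0.94 and rho = 0.93. Permutation within groups gave p = 2e-05 for each r and 2e-05 to 4e-05 for rho (adjusted over 12 pairs, 2.4e-05 for r), and without the 2 libraries farthest from the median r was 0.94, 0.93 and 0.92.

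The upstream sequences of Serpinf2, Mbl1 and C9, which were called lower, and of the fibrinogen chains Fga and Fgb are shown for their liver factor motifs. RefSeq sequence of GRCm38.p6 was found for 33 members, and the 250 bases before the start site were searched on both strands for TTCNNNGAA, the palindrome bound by STAT factors of the acute phase response, TTGCNNAA (C/EBP), CAAAGNNCA (HNF4) and the HNF1 motif. Overlapping matches of different motifs were allowed. In the sequences below, read 5′ to 3′ on the strand of the gene, capitals mark a match to one of the 4 motifs. Fga (chr3:83025903-83026152, plus strand) carries the STAT motif at -234 to -226, C/EBP at -135 to -128 and HNF4 at -78 to -70, counted from the start site. Fgb (chr3:83049864-83050113, minus strand) carries STAT at -162 to -154 and C/EBP at -80 to -73. C9 (chr15:6445096-6445345, plus strand) carries C/EBP at -132 to -125. Serpinf2 (chr11:75439502-75439751, minus strand) and Mbl1 (chr14:41151206-41151455, plus strand) hold none of these letters in the window. The same holds for Fgg, the fibrinogen chain whose sequence is not shown, although it varied together with Fga and Fgb.
Fga: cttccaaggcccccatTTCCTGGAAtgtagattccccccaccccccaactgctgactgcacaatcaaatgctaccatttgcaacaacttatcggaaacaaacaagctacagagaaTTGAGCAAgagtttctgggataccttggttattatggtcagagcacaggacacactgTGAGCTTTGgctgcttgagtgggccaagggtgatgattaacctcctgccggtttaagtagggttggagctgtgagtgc
Fgb: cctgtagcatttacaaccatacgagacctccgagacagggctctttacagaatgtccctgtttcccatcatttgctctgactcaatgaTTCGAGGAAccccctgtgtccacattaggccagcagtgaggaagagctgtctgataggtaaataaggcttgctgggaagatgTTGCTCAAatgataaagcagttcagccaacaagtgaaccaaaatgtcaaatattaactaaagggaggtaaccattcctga
C9: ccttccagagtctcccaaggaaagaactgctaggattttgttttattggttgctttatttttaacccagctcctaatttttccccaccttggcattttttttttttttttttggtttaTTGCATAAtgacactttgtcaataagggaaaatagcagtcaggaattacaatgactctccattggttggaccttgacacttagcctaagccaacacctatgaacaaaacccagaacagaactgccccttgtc
Serpinf2: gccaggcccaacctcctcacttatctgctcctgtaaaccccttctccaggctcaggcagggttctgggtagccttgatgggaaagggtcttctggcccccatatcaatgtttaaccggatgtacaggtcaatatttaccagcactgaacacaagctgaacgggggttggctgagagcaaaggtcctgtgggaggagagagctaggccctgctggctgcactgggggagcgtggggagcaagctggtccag
Mbl1: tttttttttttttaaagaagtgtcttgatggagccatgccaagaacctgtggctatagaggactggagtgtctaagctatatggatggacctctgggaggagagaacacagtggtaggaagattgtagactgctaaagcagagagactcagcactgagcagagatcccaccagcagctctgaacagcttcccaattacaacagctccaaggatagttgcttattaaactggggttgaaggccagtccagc

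Across the set the STAT motif stood in 6 of 33 members (C8a, F9, Fga, Fgb, Masp2 and Pros1) and in 7.02% of 32851 windows of all genes. C/EBP stood in 7 (C3, C9, F11, F9, Fga, Fgb and Klkb1) against 9.56% of windows, HNF4 in 4 (C8g, F7, F9 and Fga) against 5.49%, and HNF1 in 2 (C4bp and F13b) against 0.371%. C8a and C9, called lower at 5 days, are among these. These are matches of letters and were not tested against the expression values. Members were counted by gene over 35 windows, whereas the shares are of windows, 32851 for 27025 genes, so the measures differ.

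The chains of C1q are encoded side by side on chromosome 4 (C1qb at chr4:136880126-136886200, C1qc at chr4:136889801-136892936 and C1qa at chr4:136895916-136898844, GRCm38.p6), and C1qb and C1qc had the largest differences of the 38 genes in liver at 5 days. At 5 days C1qc measured 8.77, 9.23, 9.07 and 8.65 with vehicle and from 8.22 through 8.39 to 8.78 with baclofen, overlapping groups that differed by -0.49 ± 0.15 (SE, limma adjusted p = 0.0426). C1qb differed by -0.53 ± 0.17 (SE, limma adjusted p = 0.0579) and C1qa by -0.37 ± 0.16 (SE, limma adjusted p = 0.151). The C1qc call was lost in 11 of 23 settings, with adjusted p up to 0.161 and no reversal. At 1 day the chains differed by -0.28 to -0.35, and none passed. Macrophage markers moved with them. At 5 days 3 of 10 tested markers were lower, beside 5.75% of all genes tested. The 3 included Mpeg1 at -0.77 ± 0.19 and Lyz2 at -0.54 ± 0.14 (SE). The mean of the marker list ran from 7.67 to 8.06 in vehicle livers and from 7.33 to 7.71 in baclofen livers. Clec4f, a marker of resident liver macrophages, averaged 9.54 ± 0.12 (SD, n = 4) with vehicle and 9.14 ± 0.18 (SD, n = 8) with baclofen. The part of macrophage number in the C1q values was not tested.

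Acute phase plasma proteins moved with the liver result as well. Of 14 such genes outside the set, 6 were lower at 5 days, led by Lcn2 at -3.80 ± 0.93 and Saa3 at -3.09 ± 0.82 (SE). The share of all genes tested that were lower was 5.75%. The mean of the acute phase list was 13.53, 13.63, 12.82 and 11.57 in the vehicle livers, in replicate order. In the baclofen livers it ran from 11.08 to 11.80, apart from replicate 8 at 12.96. The libraries that stood out in Serping1 and Cfb were thus also those at the edge of their group for the acute phase list. Without vehicle replicate 4 the count of called members was 11, without baclofen replicate 8 it was 10, and without vehicle replicate 2 or 3 it was 2. It was 4 without baclofen replicate 2, 3, 5 or 6. An RNA quality measure, the excess in log2 of 3′ over 5′ probe sets of control transcripts, averaged 0.50 ± 0.06 (SD, n = 4) with vehicle and 0.44 ± 0.04 (SD, n = 8) with baclofen, and with it as a covariate the count was 4. Their part in the result was not tested.

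Of the clotting proteases and cofactors tested in liver, 0 passed at 5 days, beside 5.75% of all genes lower and 4.86% higher. F3, under the brightness filter, was not among those tested. Among the vitamin K dependent proteins at 5 days the differences ran from -0.13 for F7, the protease that pairs with tissue factor, to 0.02 for Proc, the precursor of activated protein C, and prothrombin (F2) differed by 0.01 ± 0.04 (SE). F8, the cofactor missing in haemophilia A, differed by 0.21 ± 0.10 (SE, limma adjusted p = 0.177), the highest value of the 38. Serpinc1, antithrombin, differed by 0.06 ± 0.04 and Plg, plasminogen, by -0.05 ± 0.05 (SE). In the contact system Kng1, kininogen, was at -0.19 ± 0.07 (SE, limma adjusted p = 0.0969) and F12 at 0.01 ± 0.06 (SE). Cfp, properdin, depended on the probe set, at -0.13 ± 0.12 for the brighter and 0.38 ± 0.11 (SE) for the dimmer. With every probe set tested apart the dimmer one was called higher (limma adjusted p = 0.0452), the opposite direction to the 7 genes called lower.

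In the wider pathway 1 of 11 other complement components was lower in liver at 5 days, Cpn2 (carboxypeptidase N subunit) at -0.35 ± 0.10 (SE). Of 9 complement receptors and regulators 1 was lower, Calr (calreticulin, a C1q-binding chaperone) at -0.33 ± 0.08 (SE). Of 15 other coagulation and fibrinolysis genes 1 was lower, Serpina10 (inhibitor of factor Xa) at -0.61 ± 0.14 (SE, limma adjusted p = 0.0112). These shares lie near the 5.75% of all genes called lower. At 1 day, when 2.67% of all genes passed, 1 gene of these lists did, Thbd (thrombomodulin), higher by 1.06 ± 0.27 (SE, limma adjusted p = 0.0378).

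In bone marrow 0 of 14 members passed at either time, where 7.36% of all genes passed at 1 day (3.11% higher and 4.25% lower) and 10.1% at 5 days (6.15% higher and 3.93% lower). For 0 members were the groups apart, against 5.57% of all genes upward and 7.69% downward at 1 day and 3.53% and 1.72% at 5 days. An unadjusted p under 0.05 was reached by 4 at 1 day and by 1 at 5 days, against 24.1% and 26.4% of all genes. The C1q chains were above vehicle here, C1qa by 0.37 ± 0.16, C1qb by 0.49 ± 0.19 and C1qc by 0.39 ± 0.15 (SE, limma adjusted p = 0.149, 0.110 and 0.116) at 1 day. Vehicle replicate 1 was the lowest library for all 3, at 10.52, 10.05 and 10.11 against 10.74 or more in the other vehicle libraries of that day. The same library had the highest 3′ over 5′ excess of the 20 marrow arrays, 0.235 against 0.0028 to 0.0961 in the other vehicle libraries of that day. Without it C1qa, C1qb and C1qc differed by 0.19 ± 0.13, 0.27 ± 0.15 and 0.22 ± 0.13 (SE, limma adjusted p = 0.421, 0.320 and 0.331), and with the excess as a covariate by 0.33 ± 0.15, 0.42 ± 0.17 and 0.35 ± 0.14 (SE). At 5 days the differences were 0.21 ± 0.14, 0.20 ± 0.16 and 0.29 ± 0.13 (SE). Macrophage markers were called higher for 2 of 10 at 5 days, Cd5l at 0.63 ± 0.15 and Cd163 at 0.48 ± 0.14 (SE), and their mean ran from 9.67 to 9.88 with vehicle and from 9.92 to 10.24 with baclofen. F13a1, factor XIII subunit A, differed by -0.40 ± 0.16 (SE, limma adjusted p = 0.124) at 1 day, and F10, factor X, by -0.34 ± 0.18 (SE). Without the library with muscle transcripts F13a1 differed by -0.53 (adjusted p = 0.0308) and C1qc by 0.48 (adjusted p = 0.0492), so that 2 members passed.

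**Figure D3:**
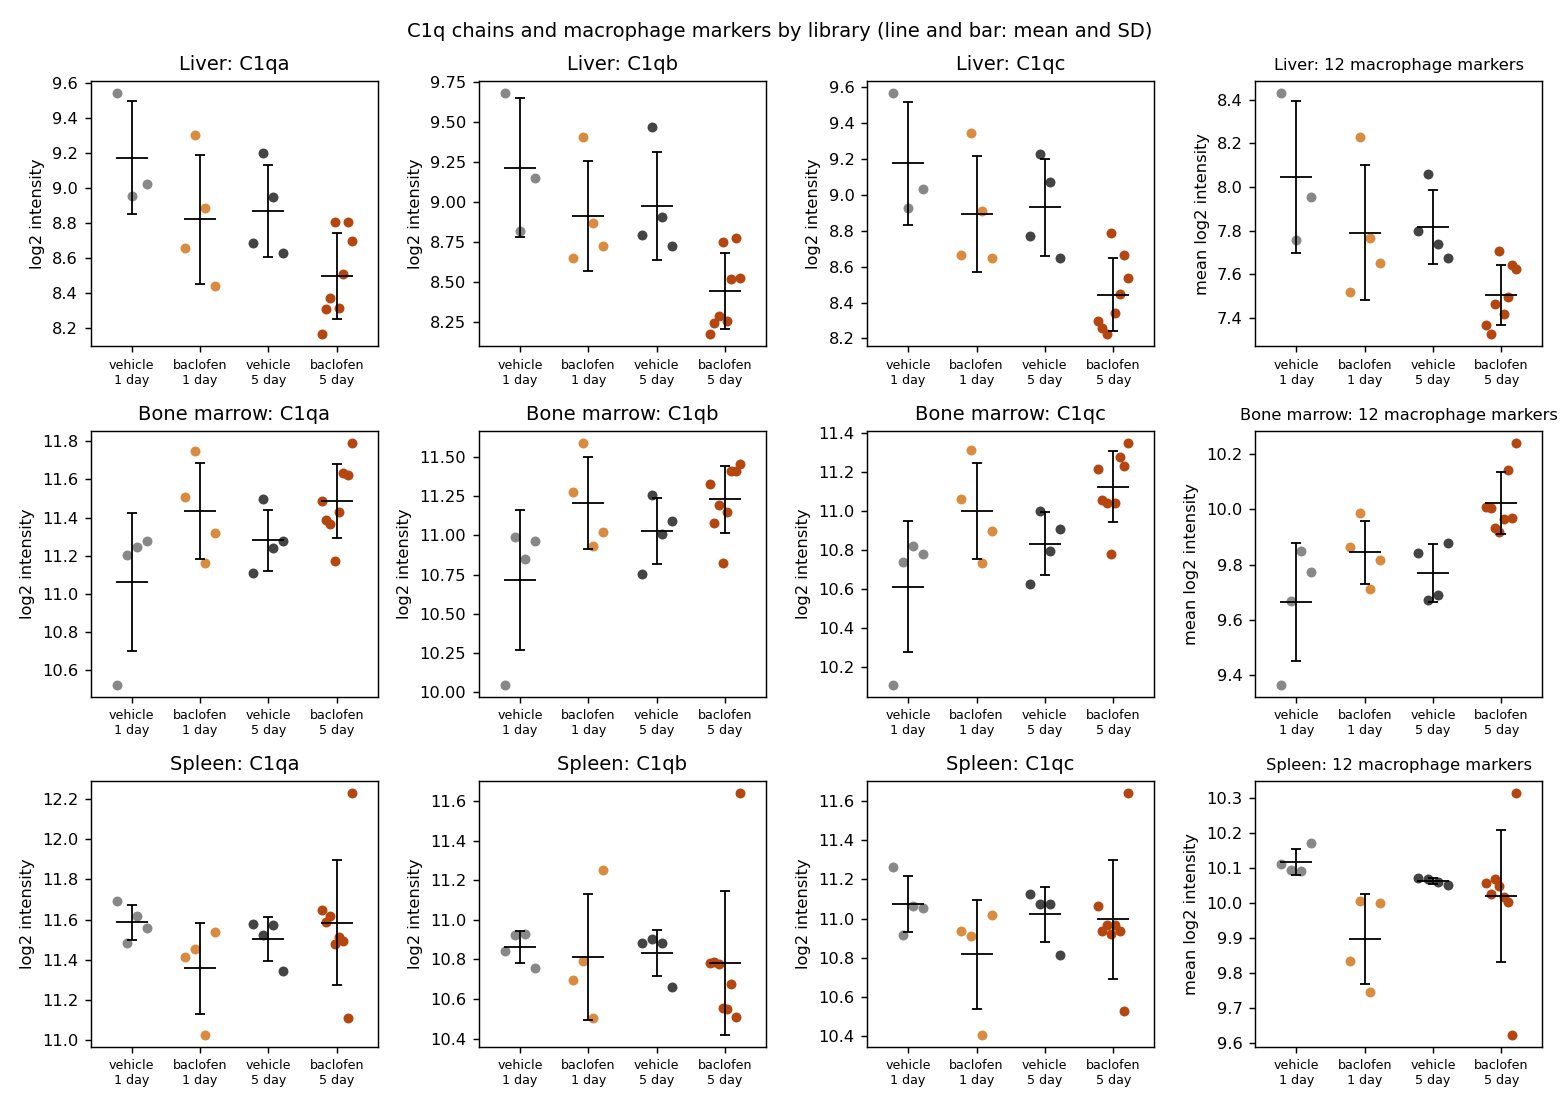
Log2 intensity (y axes) of the 3 C1q chains and the mean of 12 macrophage markers in every library of liver, marrow and spleen (rows) by group (x axes), with points for libraries and a line and bar for the mean and SD. At both times the baclofen group means of C1q and of the markers lie under vehicle in liver and above it in marrow; in spleen C1qb was read by another probe set.

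The C1q chains varied together in every tissue. Correlations of deviations from the group means ran from r = 0.94 to 0.96 in liver, from 0.97 to 0.98 over 20 marrow libraries and from 0.83 to 0.98 over 20 spleen libraries, with rho from 0.90 to 0.93, 0.94 to 0.98 and 0.61 to 0.96. Adjusted permutation p lay between 1.7e-05 and 0.00047 for r and between 2e-05 and 0.0047 for rho. Without the 2 farthest libraries r was at least 0.66. The lowest values were the spleen pairs with C1qb.

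Other complement and coagulation genes that passed in marrow were Cd59a, which blocks the lytic pore, higher by 0.39 ± 0.09 at 1 day and 0.43 ± 0.08 (SE) at 5 days, and at 5 days C5ar1, the C5a receptor, at -0.46 ± 0.13, Plaur, the urokinase receptor, at -0.47 ± 0.13 and Anxa2, a plasminogen co-receptor subunit, at -0.36 ± 0.11 (SE). They were 1 of 11 receptors and regulators at 1 day, 2 of 11 at 5 days and 2 of 14 other coagulation genes at 5 days, where 7.36% of all genes passed at 1 day and 10.1% at 5 days.

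In spleen after a single dose 1 of 14 members was lower, F13a1, where 7.91% of all genes were lower, and 0 were higher against 7.64%. F13a1 measured 9.56, 10.82, 8.71 and 8.97 with vehicle and 7.97, 7.85, 8.37 and 7.78 with baclofen. The groups did not overlap, as was also so for Pros1, which encodes protein S, and 8.90% of all genes separated downward (upward, 0 members and 8.27% of all genes). F13a1 fell by 1.52 (SE 0.46, limma adjusted p = 0.0319), a change of -65.2%. Pros1 differed by -0.28 ± 0.12 (SE, limma adjusted p = 0.112), F5 by -0.53 ± 0.25 and F10 by -0.72 ± 0.36 (SE). An unadjusted p under 0.05 was reached by 3 members and by 32.0% of all genes. Without vehicle replicate 2, the library with the most F13a1, the difference was -1.09 (limma adjusted p = 0.118). The call was also lost without vehicle replicate 1 (-1.51, adjusted p = 0.0713) or baclofen replicate 1 (-1.52, 0.0717), 2 (-1.48, 0.0649) or 4 (-1.45, 0.0794), and when only the 1-day spleens were fitted (-1.52, 0.0548), with the size of the difference nearly as before.

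Neutrophil markers were lower in the same spleens. Of 8 tested, 2 passed, Mmp9 at -1.13 ± 0.30 and Cxcr2 at -0.73 ± 0.23 (SE), and 8 of 8 had an unadjusted p under 0.05 with a median of -1.12. Their mean was 11.12, 10.92, 9.54 and 10.37 in the vehicle spleens and 9.56, 9.38, 9.29 and 9.45 in the baclofen spleens, so the vehicle libraries with the highest F13a1 also had the highest neutrophil mean. Megakaryocyte and platelet markers passed for 0 of 7, with a median of -0.41 and an unadjusted p under 0.05 for 5. Macrophage markers passed for 1 of 11, Spic at -0.77 ± 0.15 (SE). Of all genes tested in spleen at 1 day, limma called 7.91% lower and 7.64% higher, and 32.0% had an unadjusted p under 0.05. The part of cell makeup in the F13a1 difference was not tested.

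**Figure D4:**
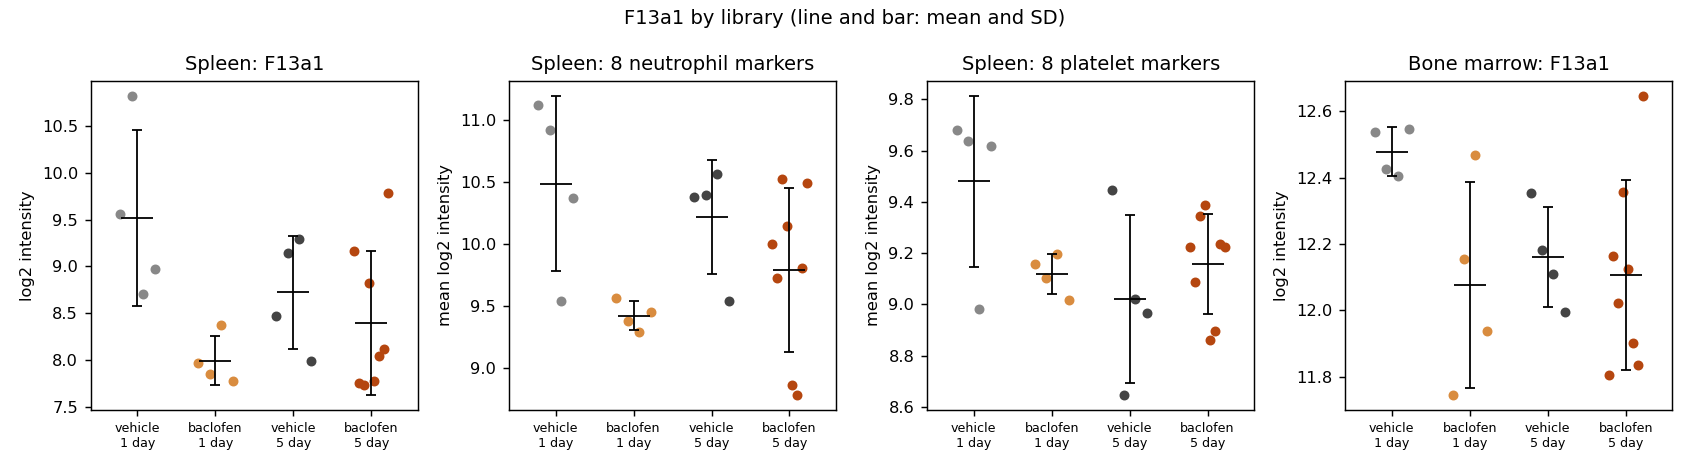
Log2 intensity (y axes) of F13a1 in spleen and marrow, and the means of 8 neutrophil and 8 platelet markers in spleen, in every library by group (x axes), with points for libraries and a line and bar for the mean and SD. In spleen at 1 day the 4 baclofen libraries lie at or under 8.37 for F13a1 and at or under 9.56 for the neutrophil mean, where 1 vehicle library lies at 9.54.

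Other pathway genes past the threshold in spleen at 1 day included Fcnb and Fcna, the ficolins of the lectin pathway, at -0.87 ± 0.24 and -0.52 ± 0.17 (SE), 2 of 5 other complement components. Cd55, a decay accelerator of C3 convertases, differed by -0.48 ± 0.11, the only one of 10 receptors and regulators. Of 15 other coagulation genes Plaur was higher by 0.48 ± 0.10 and 2 were lower, F2rl2, a thrombin receptor, at -0.44 ± 0.13 (SE) among them. Of all genes 15.5% passed at that time. At 5 days 0 of 14 members passed in spleen, where 4.43% of all genes did by limma (3.05% higher and 1.38% lower), and 0 had an unadjusted p under 0.05, against 25.9% of all genes. The groups were apart for 0 members, against 3.47% of all genes upward and 1.61% downward. F13a1 ran from 7.99 to 9.29 with vehicle and from 7.73 through 8.08 to 9.78 with baclofen, a difference of -0.32 ± 0.40 (SE). F2r, the main thrombin receptor, was higher by 0.46 ± 0.12 (SE) in 1 of 15 other coagulation genes.

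Liver-made members appeared in the 3 spleen libraries at 5 days that held hepatocyte transcripts. Fga measured 7.46 and 10.31 in vehicle replicates 1 and 3 and 10.39 in baclofen replicate 5, against 3.35 to 5.02 in the other 17 spleen libraries. Fgb measured 6.37, 9.33 and 9.18 there against 3.89 to 4.85. The Fga value of 5.02 came from another vehicle library at 5 days, whereas the 8 spleens at 1 day had at most 3.68. Alb, the hepatocyte albumin gene, reached 12.33 with vehicle and 11.85 with baclofen at 5 days but at most 5.44 in the 8 spleens at 1 day. The 3 libraries are no measure of spleen expression for the fibrinogen chains, C9, C8a, Mbl1 or Serpinf2. Without them the count of members past the threshold in spleen at 5 days was again 0. The vehicle library with Fga at 5.02 was kept in that refit.

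**Figure D5:**
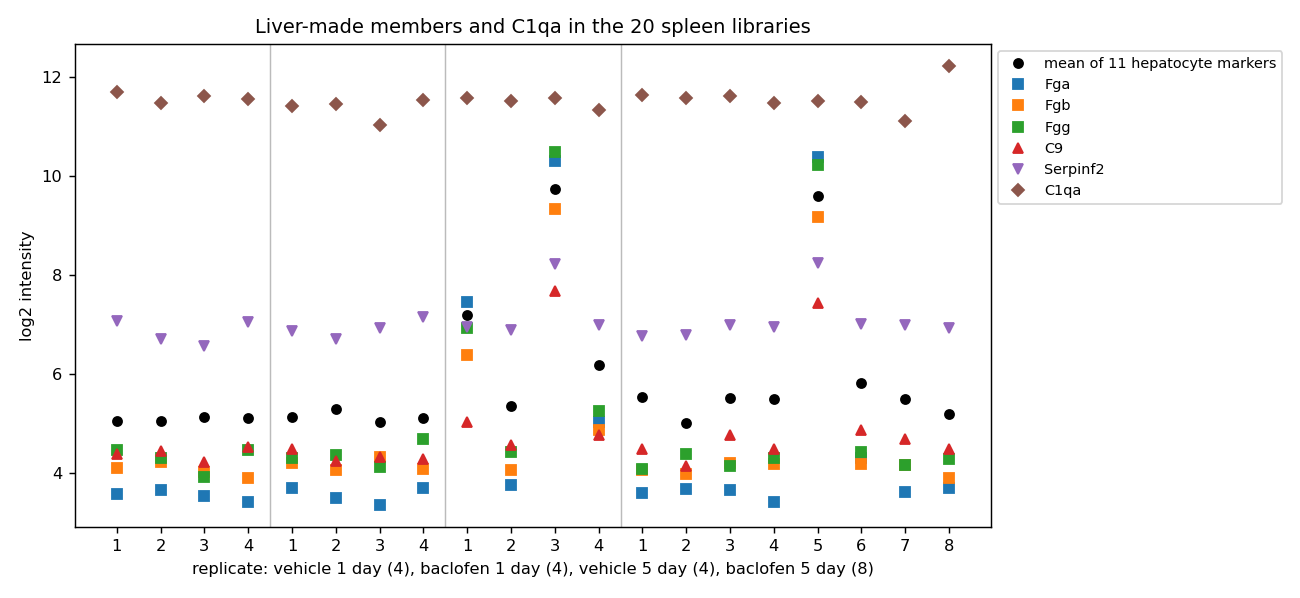
Log2 intensity (y axis) of the fibrinogen chains, C9, Serpinf2 and C1qa and the mean of 11 hepatocyte markers in the 20 spleen libraries (x axis, replicates by group, with grey lines between groups). Fibrinogen follows the hepatocyte mean in vehicle 5-day replicates 1 and 3 and baclofen 5-day replicate 5, and C1qa does not.

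The difference between baclofen and vehicle did not change detectably from 1 to 5 days for any member. The test of that change passed for 0 members in liver, marrow and spleen, beside 0.0183% of all genes in liver and 0% in marrow and spleen, and an unadjusted p under 0.05 was reached by 0, 0 and 2 members, against 9.62%, 5.12% and 7.86% of all genes. A call at 5 days and none at 1 day is therefore no evidence that the times differ. The vehicle groups at 5 and 1 day also differed for 0 members in the 3 tissues by limma (0% of all genes), with an unadjusted p under 0.05 for 0 in liver, 0 in marrow and 1 in spleen, against 7.14%, 4.67% and 3.46% of all genes. With array weights that comparison gave 1 member in marrow, C2.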

How the data were processed

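The authors deposited robust multi-array average (RMA) intensity on a linear scale, made with RMA and limma per the submitters' processing notes; versions and array background settings are not given in the sources used here. Here log2 was taken and no further normalization applied. The number of arrays limits the precision. The probe set with the highest mean in a tissue stood for its gene (8 members have several), and genes at or above the 40th percentile of means were tested, 10916 per tissue. Each tissue's 4 groups were fitted together with limma 3.58.1 in R 4.3.3 (lmFit and eBayes), adjusted by Benjamini-Hochberg over all genes tested, with a threshold of 0.05. The fit was tested on simulated data. Correlations used 100000 permutations within groups (Python 3.11.15), and the smallest p these can give is 1e-05. No samples were left out of the main fits.

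The members and gene lists were chosen with earlier results of these data known. Any member could be named, with values in every library where it passed the threshold. Of other lists, defining markers and at most the 2 genes with the smallest adjusted p past it could be named. Not every such gene is named above. Among hepatocyte markers in liver at 5 days these were Cps1 at 0.20 ± 0.05 and Hpx at -0.29 ± 0.09 (SE). Positions are those of the RefSeq table of GRCm38.p6, in which all 43 members were found by symbol. The marker lists for endothelial, adipocyte and pancreas cells were also computed; adipocyte markers had 1 of 3 higher in spleen at 5 days, pancreas markers 1 of 3 higher in marrow at each time, and endothelial and stellate markers 1 of 9 higher in spleen at 1 day. Alternatives included other filters, normalizations, probe set rules, covariates and each library left out in turn.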

Additional observations from a re-analysis of the deposited data

Results flagged for a closer look

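Single libraries stood apart from the rest of their group for 12 of 68 groups of values examined (Dixon's test). Most were liver-made members in spleen libraries that held hepatocyte transcripts, so they are not independent. The chance rate of about 1 in 20 is therefore no yardstick for this count. In liver, baclofen 5-day replicate 8 was the highest for Serping1 at 13.654 and for Cfb at 12.614, while the other 7 lay between 13.244 and 13.401 and between 12.395 and 12.482. That library also had the highest acute phase mean of its group, 12.96.

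In spleen, baclofen 5-day replicate 5 was the highest for Fga at 10.39, Fgb at 9.1814, Fgg at 10.217, C9 at 7.4257, Mbl1 at 6.0814, Serpinf2 at 8.2514 and C8a at 6.2553. Vehicle 5-day replicate 3 was the highest for C9 at 7.6688, Mbl1 at 5.9528 and Serpinf2 at 8.2288. Their hepatocyte marker means were 9.59 and 9.75.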

How the results depend on the processing

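Of 295 counts and correlations recomputed under other settings, 269 kept their value within the set margin. Many of these were counts of 0 that stayed at 0. With single libraries left out, the count was kept in 5 of 12 runs for liver at 5 days and in 2 of 8 for spleen at 1 day. In liver at 5 days the count of 7 became 4 with the RNA quality covariate, 4 with only the 5-day groups fitted and 1 with the replicate block. It was 5 with no brightness filter, median centring or array weights, and 9 with quantile normalization or the mean of probe sets. It was 10 with the filter at the 60th percentile or with limma's trend and robust options. With every probe set apart it was again 7, but Cfp was called higher and Cfb was not called. Leaving out single libraries gave 2 to 11. In liver at 1 day it was 0 to 0 with single libraries left out. In marrow at 1 day the count of 0 became 1 with every probe set apart, from another probe set of Cfp that was lower. It became 4 with array weights and 2 without the library holding muscle transcripts, and 0 to 2 with single libraries left out. At 5 days in marrow it became 3 with array weights and 0 to 1 with single libraries left out (F10 without vehicle replicate 4 or baclofen replicate 8), and for vehicle at 5 against 1 day in marrow 1 with array weights. In spleen at 1 day the count of 1 became 4 with array weights and 0 with only the groups compared, and 0 to 2 with single libraries left out. The causes of these shifts were not tested. Serpinf2 was called in 23 of 23 settings, Mbl1 in 22, C8a in 19, C9 in 17, C1qc in 12, Serping1 in 9 and Cfb in 6, and none of the 7 changed sign.

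Replicate numbers showed no steady pairing of the samples. Of 23 correlations between same-numbered samples 5 were over 0.1, and they ranged from -0.458 to 0.271, so the block is given as an alternative only. They were not set against correlations of differently numbered samples and cannot exclude a pairing. With the replicate block Mbl1 had an adjusted p of 0.0526. The small number of arrays, dim probe sets and tissues apparently normalized apart limit what can be detected, and the labels give no batch. The F3 refits, the directions by source field and the marrow C1q refits were added after the data were seen.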
